A study of Homo sapiens with 3 samples.

Results

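Transcripts of tubulins and kinesin motors were measured in FaDu, a permanent hypopharyngeal squamous carcinoma line, after exposure to NSC-631570, an extract of greater celandine (Chelidonium majus). Members were the probe sets that named exactly 1 gene in the platform's annotation and whose symbol was a numbered alpha-, beta-, gamma-, delta- or epsilon-tubulin, a gamma-tubulin complex protein or a kinesin. This gave 155 of 44988 single-gene probe sets and 65 of 18132 genes, divided by known role into 18 tubulin isotypes, 5 gamma-tubulin complex proteins, 14 mitotic kinesins, 15 transport kinesins and 13 other kinesins. The last group holds KIF25-AS1, an antisense RNA gene that the symbol rule admits and that encodes no kinesin, and TUBB7P among the isotypes is a pseudogene. TUBB, the gene of a widely expressed beta-tubulin, carries no number in its symbol and is no member, and TUBA1B is named only by probe sets shared with TUBA1A.

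The treated group was 1 array, from FaDu cells exposed to NSC-631570 at 10 µg/ml over 48 h, a dose that the series' design text calls the EC50. The control group was 2 arrays of untreated cells given distilled water in its place. All cells grew in RPMI medium with fetal calf serum and antibiotics, and total RNA was hybridised to Affymetrix PrimeView arrays. Values are log2 signals per probe set, so a difference of 1 is a 2-fold difference. The treated condition has no replicate, and the labels do not say whether the untreated arrays came from separate cultures, so the spread behind each p-value may be only technical. The number of arrays limits the precision.

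Microtubules are polymers of alpha- and beta-tubulin dimers that grow from rings of gamma-tubulin, and cells keep several tubulin genes, or isotypes, that code for closely related proteins. Kinesins are ATP-driven motors that walk along microtubules: some build and divide the mitotic spindle and are made mainly by cycling cells, others carry vesicles and organelles. Free tubulin dimers can trigger decay of tubulin mRNAs as they are translated, and alkaloids of greater celandine such as chelidonine have been described as inhibitors of tubulin assembly. Whether transcripts of this machinery differ after the extract is the question the comparison addresses.

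The array medians were 6.55 in the treated array, and 6.62 and 6.57 in untreated 1 and untreated 2. Each gene was taken by its brightest single-gene probe set, and 11933 genes whose mean reached 5.85 were tested, a filter set at the 40th percentile of probe set means. Of the squamous markers 5 of 8 were on single-gene probe sets, KRT5, KRT14, CDH1, DSG3 and ITGB4, with signals between 8.57 and 13.39. Markers of fibroblasts, leukocytes, endothelium and neurons stayed at or below 8.21, but 12 of 19 passed the filter, so passing it does not show that a gene is expressed. Array control probe sets aimed at the 5′ end were lower in the treated array, with 12.23 for ACTB, against 13.61 and 13.60 in the untreated arrays, and 14.00 for GAPDH, against 14.45 and 14.51. Their 3′ counterparts stood at 14.40 in the treated array, against 14.19 and 14.21, for ACTB, and at 14.56, against 14.53 and 14.61, for GAPDH. Where single probe sets of a gene lie along its transcript was not used here, and the part of this 5′ signal in the results was not tested.

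Of the 65 member genes 56 passed the filter, and none of them passed the test over all genes (limma, Benjamini-Hochberg adjusted p between 0.227 and 0.999), where 0.067% of all tested genes did (0.0419% higher and 0.0251% lower). Since RNA came from bulk cultures, fewer cells with a transcript and less of it per cell cannot be told apart. At an unadjusted p under 0.05 limma counted 3 members higher, KIF7, KIF26A and KIFC2, and 1 lower, KIF18B, where the shares over all tested genes were 12.2% higher and 2.24% lower. No member stood at least 1.5-fold above both untreated arrays (5.84% of all tested genes) or at least 1.5-fold below both (1.23%), and thus none at least 2-fold above (0.88%) or below both (0.235%). Above both untreated arrays by any margin were 24 of 56 members, or 42.9% (51.6% of all tested genes), below both were 13, or 23.2% (22.5%), and 19 lay between them. The median member differed by 0.09 on the log2 scale and the median tested gene by 0.12. Higher than the untreated mean were 31 members, or 55.4% (66% of all tested genes). Centring moved that share: it was 30.4% (40.01% of all tested genes) when each array was centred on the median of its tested genes. The median tested gene then stood at −0.08. Centred on all probe sets, the share was 66.1% (71.4% of all tested genes), with the median tested gene at 0.16. The share over all tested genes thus moved the same way as that of the members. The 9 members below the filter were TUBB1, TUBB7P, TUBB8, KIF2B, KIF6, KIF19, KIF25, KIF26B and KIF27, with signals between 3.51 and 5.99.

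Among the tubulin isotypes no change passed the test, and the differences of the 15 tested lay between −0.34 and 0.60 with a median of 0.07. Treated signals were above both untreated arrays for 5 isotypes (51.6% of all tested genes), below both for 3 (22.5%) and between them for 7. The untreated arrays themselves were a median of 0.31 apart for these genes, against 0.18 over all tested genes. The brightest probe set of all 11 tested alpha- and beta-tubulins carries the suffix _x_at or _s_at, by which the manufacturer marks probe sets that can match more than 1 transcript, so isotypes may share signal. That share was not tested.

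TUBA1A, an alpha-tubulin best known from neurons, had the largest difference of the isotypes, with a signal of 9.70 in the treated array, against 8.80 and 9.39 in the untreated arrays. It was 1.51-fold above the untreated mean (log2 difference 0.60 ± 0.28, SE from limma, adjusted p = 0.386), but only 0.30 above untreated 2, and the untreated arrays lay 0.59 apart. Its other probe set was 0.62 above untreated 1 and 0.02 above untreated 2. Probe sets shared by TUBA1A and TUBA1B, which was not measured alone, were lower: 13.67, against 13.86 and 13.74, and 13.61, against 13.82 and 13.85.

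TUBA1C, a broadly expressed alpha-tubulin, had 13.01 in the treated array, against 12.98 and 13.43. TUBA4A had 11.46, against 11.48 and 10.85. On these probe sets the treated value sat beside untreated 1, and untreated 2 stood apart. The second probe set of TUBA4A had the same order, while that of TUBA1C was below both, at 12.84, against 13.05 and 13.14. TUBA3C (6.38, against 6.73 and 6.56), TUBA3D (7.83, against 8.12 and 7.80) and TUBA3E (7.49, against 7.72 and 7.95) are alpha-tubulins known from testis. The treated array was below both untreated arrays for TUBA3C and TUBA3E and between them for TUBA3D, with single-array distances of at most 0.45.

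The beta-tubulins were nearer to their controls, with differences between −0.06 and 0.20. TUBB4B, a broadly expressed isotype, had 13.53 in the treated array, against 13.50 and 13.19 in the untreated arrays. TUBB6 had 12.74, against 12.70 and 12.39. The treated array exceeded untreated 1 by 0.03 and 0.04 for these genes, less than the distance between the untreated arrays. TUBB2A (10.62, against 10.59 and 10.77), TUBB4A (7.17, against 7.33 and 6.87) and TUBB3 (8.52, against 8.68 and 8.47), the last a marker of neurons that many carcinomas also express, lay between the untreated arrays. The dimmest probe set of TUBB4B past the filter read 6.83, against 7.13 and 7.22, which is a difference of −0.34, opposite in sign to its 2 brighter probe sets (0.18 and 0.23).

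TUBB, outside the symbol rule, had the lowest difference of the beta-tubulin genes tested. All 6 of its probe sets were below the untreated mean, by −0.21 to −0.84, and 5 of them were below both untreated arrays. All 6 carry the suffix _x_at or _s_at, so they may share signal with other tubulins, which was not tested. The brightest read 12.94 in the treated array, against 13.31 and 13.01 (adjusted p = 0.766), and the farthest 11.75, against 12.66 and 12.51. With every probe set tested one by one, that last difference had an adjusted p of 0.0971. Of the genes known to carry out the decay of tubulin mRNA, TTC5, which reads the nascent tubulin chain, had 9.45, against 9.29 and 8.94. SCAPER, its adaptor, had 6.24, against 6.03 and 6.48, and CNOT11, a deadenylase subunit that the adaptor contacts, had 9.98, against 9.79 and 9.57. CNOT10, the partner of CNOT11, had 9.74, against 9.66 and 9.93, on its brightest probe set, but a second read 7.79, against 9.11 and 9.25 (log2 difference −1.39, adjusted p = 0.0229 probe set by probe set). None of these 4 genes passed the test on its brightest probe set.

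Of the gamma-, delta- and epsilon-tubulins, 2 of 4 were above both controls (51.6% of all tested genes) and 1 below both (22.5%). TUBG2, a gamma-tubulin, had 9.22 in the treated array, against 8.92 and 8.73 in the untreated arrays (0.40 ± 0.22, adjusted p = 0.47), and its second probe set was 0.26 higher. TUBG1, the main gamma-tubulin of dividing cells, had 11.48, against 11.36 and 11.27. Both genes stood above untreated 1 and untreated 2. TUBE1, an epsilon-tubulin of the centriole, had 10.44, against 9.67 and 10.85, so the untreated arrays were 1.18 apart and enclosed the treated one. TUBD1, a delta-tubulin, was below both, at 8.74, against 8.96 and 8.93, and its second probe set differed by −0.61.

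The gamma-tubulin complex proteins form the ring around gamma-tubulin. Of these, 3 of 5 were above both untreated arrays (51.6% of all tested genes), 1 was below both (22.5%) and 1 between. Their median was 0.18, where all tested genes gave 0.12. TUBGCP2, a core subunit, had 8.77 in the treated array, against 8.38 and 8.39 (0.38 ± 0.21, adjusted p = 0.478). Another probe set repeated that difference (0.38) and one more stood at −0.50, and the mean over all 5 of its probe sets, including those below the filter, was −0.0067. The other subunits ranged from −0.30 (TUBGCP5, whose second probe set was 0.27) to 0.19 (TUBGCP3, whose 4 others lay between −0.23 and 0.42).

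**Figure D1:**
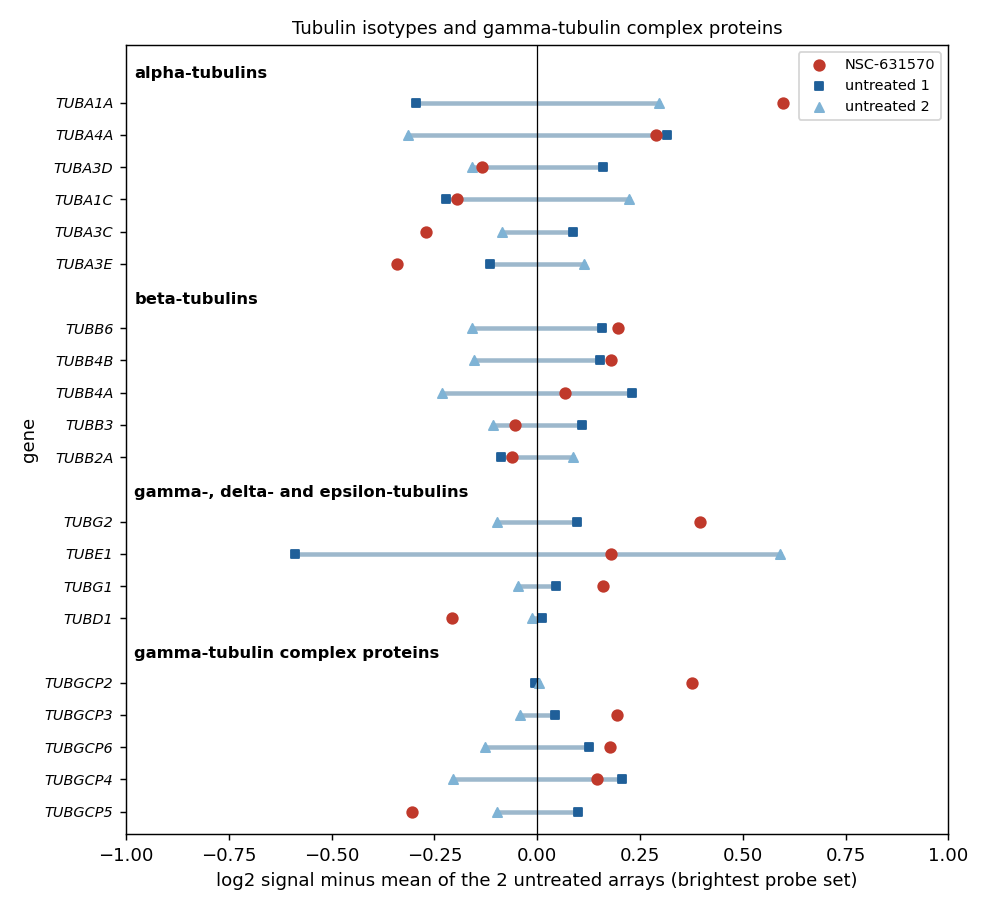
Log2 signal minus the mean of the untreated arrays (x axis) for the 15 tubulin isotypes and 5 gamma-tubulin complex proteins past the filter (y axis), on the brightest probe set. Red circles are the NSC-631570 array, squares and triangles untreated 1 and untreated 2, and bars join the untreated arrays. For 8 isotypes the circle lies outside the bar, and no gene reaches 1 in either direction.

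Mitotic kinesins split in both directions, and none of the 13 tested passed the test. The treated array was above both untreated arrays for 3 (51.6% of all tested genes), below both for 5 (22.5%) and between them for 5. The median difference was −0.04, where all tested genes gave 0.12, and it was −0.13 against untreated 2 alone and 0.01 against untreated 1 alone. KIF2B, which lay below the filter, is the member not counted.

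KIF18B, a motor that shortens astral microtubules, was the lowest: 7.63 in the treated array, against 8.27 and 8.03 in the untreated arrays. It was 1.44-fold below the untreated mean (log2 difference −0.52 ± 0.23, adjusted p = 0.347). All 4 of its probe sets were below both untreated arrays, with differences between −0.28 and −0.63. Its 2 brightest probe sets hold identical values and count as 1 measurement.

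KIFC1, a minus-end motor that gathers spindle poles, had 8.98 in the treated array, against 9.40 and 9.24. KIF20A, which works in cytokinesis, had 9.83, against 10.23 and 10.01. KIF14, which acts at the midbody, had 10.18, against 10.38 and 10.47, and its second probe set read 8.40, against 9.09 and 8.76. In these 3 genes the treated array was below both controls, by 0.17 to 0.26 from the nearer one on the brightest probe set, and no adjusted p was under 0.555. KIF23, a subunit of centralspindlin, was also below both, by 0.04.

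The chromokinesins KIF4A and KIF22, motors that act on chromosome arms, were above both controls. KIF4A had 8.78 in the treated array, against 8.16 and 8.45 (0.47 ± 0.23, adjusted p = 0.412). The probe set it shares with KIF4B was also above both, by a difference of 0.31 from their mean, and its dimmer single-gene probe set was at −0.09. KIF22 had 10.36, against 9.86 and 10.20, on its brightest probe set, while its other 2 read lower: 9.41, against 9.75 and 9.97, and 8.03, against 8.59 and 9.03. The direction of KIF22 therefore turns with the probe set. KIF20B, a cytokinesis motor, was above both by 0.13.

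The 5 between the controls hold the motors that build the bipolar spindle: KIF11, the target of Eg5 inhibitors (−0.0092), and KIF15 (0.05). With them were KIF18A, which limits chromosome oscillation (−0.02), and the microtubule depolymerases KIF2A (−0.06) and KIF2C (−0.04). Dimmer probe sets of KIF2A (−0.52) and KIF2C (−0.40) were lower than the brightest ones.

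Mitotic genes are known to be read late in the cell cycle through a CCAAT box and, close to the start, a cell cycle genes homology region (CHR). Promoters from RefSeq (GRCh38.p14, 250 bases before to 50 after the start) were matched to 55 of the 65 members by symbol and searched on both strands for a CHR, taken as TTTGAA or TTCGAA, and for CCAAT. No 2 matches overlap in the promoters printed here. A CHR was in 11 of 15 mitotic kinesin promoters (73.3%), against 1 of 16 transport kinesin promoters (6.25%), 5 of 22 tubulin isotype promoters (22.7%) and 16.4% of all 35116 promoters. CCAAT was in 66.7% of mitotic kinesin promoters, and in 31.2%, 59.1% and 34.6% of the others in the same order. A gene with several promoters counts more than once: the tubulin isotype promoters with a CHR belong to TUBA1C, which has several, TUBB3 and TUBB4B only. Of the 12 CHR matches in mitotic kinesins 10 began within 50 bases before the start or after it. The promoters below are those of the mitotic kinesins of this comparison that stood below both controls by the naming rule, of KIF4A above both, and of the transport kinesin KIF16B, with CHR and CCAAT letters in capitals (TTCAAA and ATTGG are their forms on the opposite strand).
KIF18B: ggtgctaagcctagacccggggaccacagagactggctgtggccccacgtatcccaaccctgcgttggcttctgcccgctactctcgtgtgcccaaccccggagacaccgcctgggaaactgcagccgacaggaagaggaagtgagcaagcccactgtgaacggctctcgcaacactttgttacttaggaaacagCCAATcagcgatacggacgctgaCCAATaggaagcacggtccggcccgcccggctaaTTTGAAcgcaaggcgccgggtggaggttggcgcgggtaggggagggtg
KIFC1: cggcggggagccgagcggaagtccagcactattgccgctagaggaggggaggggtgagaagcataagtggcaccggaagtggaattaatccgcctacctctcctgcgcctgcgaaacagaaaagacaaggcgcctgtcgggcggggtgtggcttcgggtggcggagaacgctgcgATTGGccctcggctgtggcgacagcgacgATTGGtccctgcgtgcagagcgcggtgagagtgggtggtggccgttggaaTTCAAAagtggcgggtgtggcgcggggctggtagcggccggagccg
KIF14: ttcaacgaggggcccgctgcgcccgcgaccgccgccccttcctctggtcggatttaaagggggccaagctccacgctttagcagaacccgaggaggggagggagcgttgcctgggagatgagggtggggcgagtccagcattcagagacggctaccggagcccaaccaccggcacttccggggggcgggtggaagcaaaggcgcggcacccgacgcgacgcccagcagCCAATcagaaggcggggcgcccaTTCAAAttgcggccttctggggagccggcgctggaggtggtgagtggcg
KIF20A: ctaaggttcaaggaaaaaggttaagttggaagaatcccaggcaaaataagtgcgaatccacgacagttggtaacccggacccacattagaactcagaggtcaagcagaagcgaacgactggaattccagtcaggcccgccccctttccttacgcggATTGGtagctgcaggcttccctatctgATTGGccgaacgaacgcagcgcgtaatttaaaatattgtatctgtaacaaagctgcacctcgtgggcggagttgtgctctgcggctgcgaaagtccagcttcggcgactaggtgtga
KIF4A: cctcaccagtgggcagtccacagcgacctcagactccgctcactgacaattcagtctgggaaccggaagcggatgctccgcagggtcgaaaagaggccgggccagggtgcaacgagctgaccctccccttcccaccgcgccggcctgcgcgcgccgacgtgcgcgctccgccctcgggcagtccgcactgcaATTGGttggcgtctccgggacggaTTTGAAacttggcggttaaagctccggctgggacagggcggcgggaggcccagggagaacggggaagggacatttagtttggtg
KIF16B: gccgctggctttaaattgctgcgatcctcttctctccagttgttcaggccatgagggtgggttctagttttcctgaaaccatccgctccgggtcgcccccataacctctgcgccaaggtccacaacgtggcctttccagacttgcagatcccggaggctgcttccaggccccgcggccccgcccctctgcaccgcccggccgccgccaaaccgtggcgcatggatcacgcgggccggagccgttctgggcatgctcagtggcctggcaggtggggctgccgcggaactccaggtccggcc

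These windows lie at chr17:44947724-44948023, minus strand for KIF18B, chr6:33391573-33391872, plus strand for KIFC1 and chr1:200620702-200621001, minus strand for KIF14. Those of KIF20A, KIF4A and KIF16B lie at chr5:138178862-138179161, plus strand, chrX:70289854-70290153, plus strand and chr20:16573399-16573698, minus strand. In KIF18B the CHR begins 3 bases into the transcript, with CCAAT boxes 55 and 32 bases before the start. KIFC1 and KIF14 also hold CCAAT upstream of a CHR, which begins 5 and 2 bases into the transcript. KIF20A holds CCAAT boxes 94 and 67 bases before the start and neither spelling of the CHR. The letters did not divide the mitotic kinesins by direction: a CHR was found for 3 of 3 genes above both controls, 3 of 5 between them and 4 of 5 below both. A match is a description of the letters and not a binding site.

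Transport kinesins also had no member past the test. Of 15 tested, 7 were above both untreated arrays (51.6% of all tested genes), 3 below both (22.5%) and 5 between. Differences ran from −0.24 to 0.67 with a median of 0.13, where all tested genes gave 0.12. Kinesin-1, the carrier of mitochondria and many vesicles, was near its controls. KIF5B, its ubiquitous heavy chain, had 11.34 in the treated array, against 11.55 and 11.35, and all 4 of its probe sets were below both, by differences of −0.06 to −0.27 from the untreated mean. The neuronal heavy chains were dim: KIF5A had 6.14, against 6.53 and 6.21, and KIF5C differed by 0.03.

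Kinesin-2, the motor of intraflagellar transport, gave different answers by probe set. KIF3A had 9.12 in the treated array, against 8.88 and 8.50, on its brightest probe set (0.43 ± 0.24, adjusted p = 0.473), and −0.22 and 0.12 on its 2 others. KIF3C had 7.47, against 7.15 and 7.37. KIF3B had 10.29, against 10.24 and 9.94, on its brightest probe set, and a second one agreed in sign (0.10). Its 2 dimmer probe sets read 5.59, against 7.03 and 6.69, and 5.15, against 6.56 and 6.30. The treated values of these dimmer probe sets lie under the filter of 5.85, which they passed through the untreated arrays alone, so the size of their difference is uncertain.

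Of the remaining cargo motors KIFC2, KIF16B and KIF17 had the largest differences, and none passed the test. KIFC2, a minus-end motor, had 6.81 in the treated array, against 5.87 and 6.41 (1.59-fold, 0.67 ± 0.27, adjusted p = 0.312). KIF16B, which moves early endosomes, had 6.76, against 6.31 and 6.34 (0.44 ± 0.21, adjusted p = 0.405), and its second probe set, below the filter, differed by 0.41. KIF17, a kinesin-2 motor of dendrites and cilia, had 6.26, against 6.14 and 5.75. All 3 were above both controls, but their signals are in the range of the neuronal and endothelial markers. KIFC3, a minus-end motor with 6 probe sets, was higher on all of them, by 0.05 to 0.42, yet untreated 2 lay within 0.24 of the treated array on each. KIF1A, KIF1B, KIF1C, KIF13A and KIF13B differed by −0.12 to 0.13 on their brightest probe sets.

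Of the other kinesins, 6 of the 8 tested were above both untreated arrays, where 51.6% of all tested genes were. KIF7, which scaffolds Hedgehog signalling at the tip of the cilium, had the largest difference of all members: 7.04 in the treated array, against 5.99 and 6.48 in the untreated arrays (1.75-fold, log2 difference 0.80 ± 0.26, adjusted p = 0.227). KIF26A, an atypical kinesin without ATPase activity, had 8.59, against 8.12 and 7.61 (1.65-fold, 0.73 ± 0.26, adjusted p = 0.269). Each had 1 probe set, and the untreated arrays were 0.49 apart for KIF7 and 0.50 for KIF26A, in opposite orders. The signals of KIF7 are in the range of the neuronal and endothelial markers. KIF24, a centriolar motor, was 0.30 higher on its brightest probe set and at −0.16 on its other one. KIF21A was 0.12 higher on its brightest probe set, and its 3 others lay between −0.43 and 0.41. KIF9 was 0.12 higher, while KIF12 was at −0.16 and KIF21B at −0.00061. KIF25-AS1 stood 0.23 higher on 1 probe set and at −0.26 on another.

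**Figure D2:**
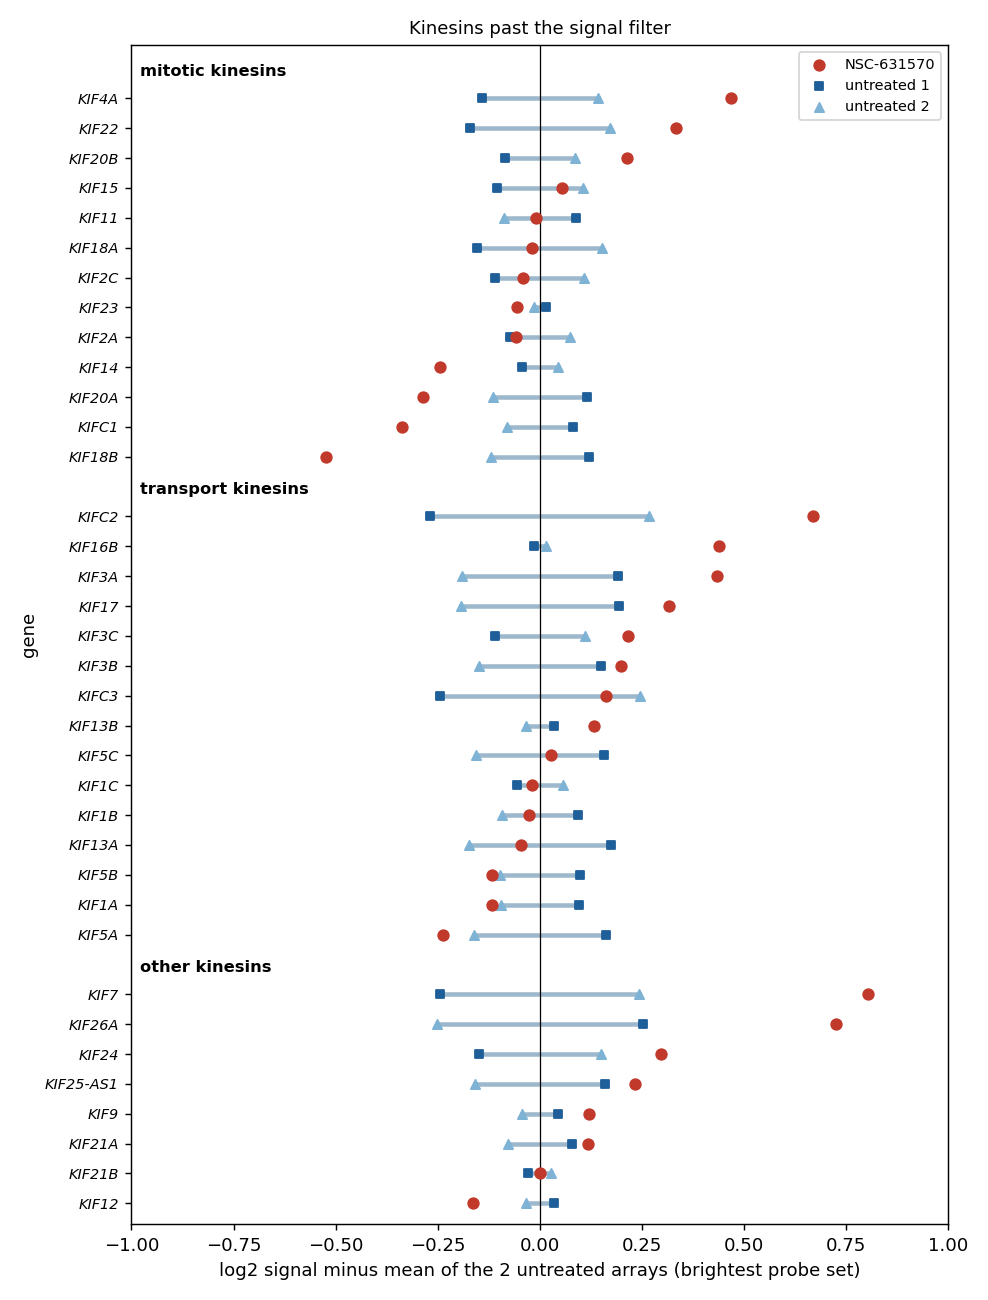
Log2 signal minus the mean of the untreated arrays (x axis) for 13 mitotic, 15 transport and 8 other kinesins past the filter (y axis), on the brightest probe set. Red circles are the NSC-631570 array, squares and triangles untreated 1 and untreated 2, and bars join the untreated arrays. KIF7, KIF26A and KIFC2 lie farthest to the right and KIF18B farthest to the left, and mitotic kinesins fall on both sides.

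Probe sets of the same gene differed more in the treated array than between the controls. For the 31 members with several probe sets past the filter, the differences spanned a median of 0.37 within a gene, against 0.20 for the distance of untreated 1 from untreated 2 in the same probe sets. The first was the larger in 25 of 31 genes, or 80.6%, and in 65.6% of 7124 genes of the whole table. Differences at least 1 apart were seen in 3 members, KIF1B (1.52), KIF3B (1.48) and KIF22 (1.11), or 9.68%. Over all such genes the share was 14.9%, so spans this wide were not more frequent among the members. Neither of these pairs of shares was tested, and the span of KIF3B rests on its dimmer probe sets with treated values under the filter. Between the controls 0 of 31 members and 1.82% of all genes reached 1. The brightest probe set had the higher difference than the median of the others in 23 of 31 members (74.2%) and in 69.9% of all genes.

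With every probe set tested one by one, 112 of the 155 member probe sets passed the filter and 3 were past the threshold, all lower in the treated array. One was of KIF1B (log2 difference −1.13, adjusted p = 0.0446), with signals above the filter in every array. The others were the 2 dimmer ones of KIF3B (−1.28 and −1.27, adjusted p = 0.034 and 0.0407), which entered the test only through their untreated values and had to differ, so these calls give no support. Over all tested probe sets 2.93% passed. The same 3 were at least 2-fold below both controls (2.57% of all tested probe sets). At an unadjusted p under 0.05, 3 member probe sets were higher (8.31% of all) and 8 lower (9.55%). The probe set of KIF1B, a motor of mitochondria and synaptic vesicle precursors, read 6.95 in the treated array, against 8.17 and 7.99. The brightest probe set of KIF1B read 8.84, against 8.96 and 8.78, and the dimmest one past the filter was higher, at 6.27, against 6.08 and 5.70. Another was lower, at 5.79, against 6.89 and 6.18, with its treated value under the filter. The remaining probe set past the filter differed by 0.09. These 3 calls came in the array whose 5′ control for ACTB was 2.59-fold lower, and the part of that in them was not tested.

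**Figure D3:**
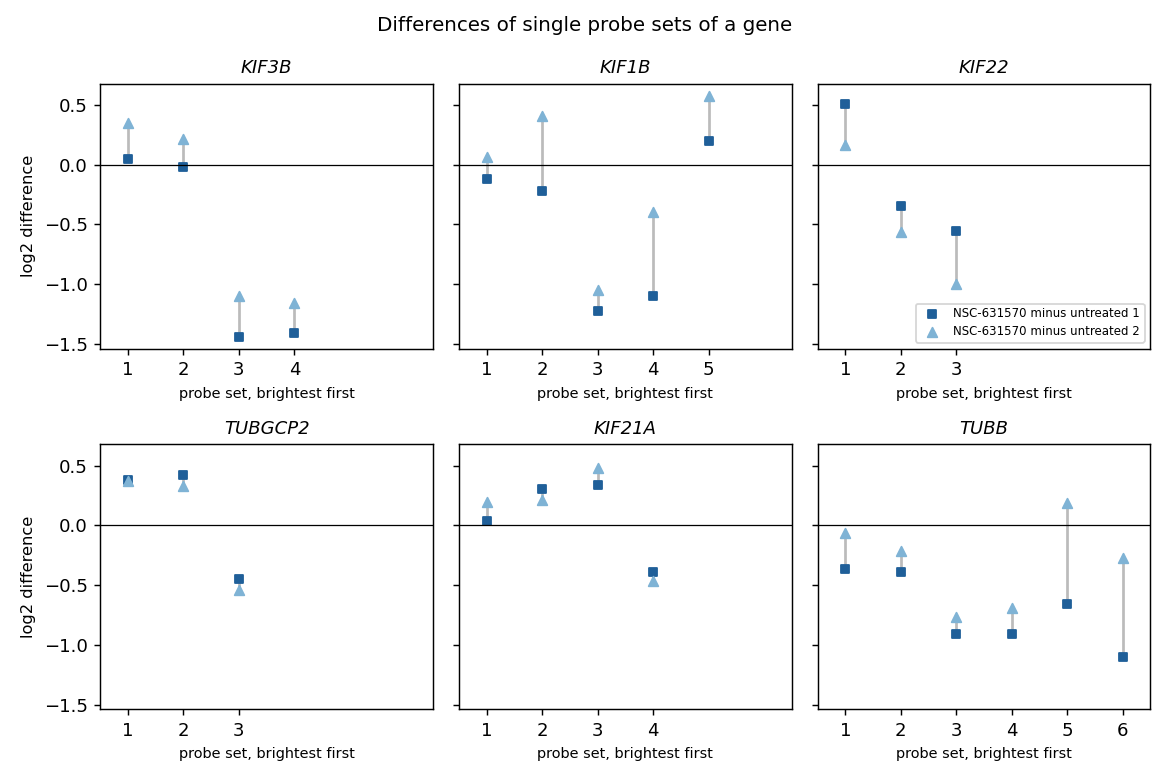
Log2 difference of the NSC-631570 array from untreated 1 (squares) and untreated 2 (triangles) on the y axis, for each probe set past the filter of 5 members and of TUBB, in order of brightness on the x axis. The dimmer probe sets of KIF3B, whose treated values are under the filter, lie below −1 from both controls while its brighter ones are closer to 0, and most points of TUBB lie below 0.

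Genes that work with tubulin and kinesins were taken in 9 lists of 144 genes, of which 123 were tested, and none passed the test. Above both untreated arrays were 57 (51.6% of all tested genes) and below both 30 (22.5%), and 2 were at least 1.5-fold above both (5.84% of all tested genes) and 2 at least 1.5-fold below both (1.23%). Of 20 folding cofactors and chaperonin subunits 8 were above both and 8 below both, where those shares over all tested genes were 51.6% and 22.5%, and the median was 0.01, where that of all tested genes was 0.12. The largest differences were those of TBCC, a folding cofactor (0.47), and PFDN5, a prefoldin subunit (0.41), against CCT6A, a chaperonin subunit (−0.35). TBCB stood at 0.34, but only 0.09 above untreated 2.

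Among 13 tubulin-modifying enzymes TTLL4, a glutamylase, had 6.65 in the treated array, against 7.66 and 7.35 (−0.85 ± 0.24, adjusted p = 0.177), but its other probe set differed by 0.02. The deglutamylases AGBL5 (0.57) and AGTPBP1 (0.55) and the deacetylase HDAC6 (0.33) were above both controls. Among 23 microtubule-associated proteins STMN3, a stathmin that binds free dimers, had 7.57, against 6.06 and 6.77 (1.16 ± 0.31, adjusted p = 0.165), and its other probe set was 2.18 higher. That other probe set is the dimmer one. Whether it passed the filter only through the treated array was not examined, so its difference is not counted as support. After STMN3 came MAP1S (0.61), CLIP2 (0.59) and MAP1B (0.58). Both CLIP2 and MAP1B lay much closer to untreated 2, by 0.18 and 0.14, than to untreated 1.

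Of 23 spindle assembly partners 5 were above both (51.6% of all tested genes) and 7 below both (22.5%). The median on the brightest probe sets was 0.0016. Other probe sets past the filter were often lower, with medians of −1.55 for PRC1 and −0.53 for BIRC5, and −1.02 for the 1 of SPAG5. Those of HAUS2 (0.01) and HAUS5 (0.75) went the other way. Whether the dimmer probe sets of this list passed the filter only through the treated or the untreated arrays was not examined. The size of their differences is therefore uncertain. INCENP, the scaffold of the chromosomal passenger complex, had 6.96 in the treated array, against 8.08 and 7.65 (−0.91 ± 0.25, adjusted p = 0.177), and its other probe set was at −0.21. CDCA8, a partner in that complex, was at −0.32 (−0.49 from untreated 1 and −0.16 from untreated 2), and its other probe set at −1.05, while HAUS5 (0.38, and 0.20 from untreated 1) and HAUS8 (0.22), subunits of augmin, were above both.

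Of 13 light chains and adaptors 9 were above both controls (51.6% of all tested genes), with a median of 0.18, where all tested genes gave 0.12. The largest difference was that of KLC3, a kinesin light chain (0.72). It was 1.09 above untreated 1 and 0.35 above untreated 2. Of the mitochondrial adaptors, TRAK2 stood at 0.63, with its other probe set at 0.03, and TRAK1 at 0.54, which was 0.20 above untreated 1 and 0.89 above untreated 2, with its 3 others at a median of 0.14. KIFAP3, which joins the KIF3 motors to cargo, stood at 0.45, with its other probe set at 0.04. Of 20 dynein and dynactin genes 11 were above both (51.6% of all tested genes) and 5 below both (22.5%), with a median of 0.17. DCTN3, a dynactin subunit, had 11.29 in the treated array, against 10.48 and 10.69 (0.70 ± 0.22, adjusted p = 0.222). DCTN2 stood at 0.59, DYNC1I2, a dynein intermediate chain, at 0.56 and the adaptor BICD2 at 0.55, with its 4 other probe sets at a median of 0.12. NDE1 was lower, at −0.50, and so were its others (median −0.41). Dimmer probe sets were far lower for DYNLL2 (−3.01) and DYNC1LI2 (median −1.50), and higher for ACTR10 (0.51) and DYNC1H1 (median 0.47). Whether these dimmer probe sets passed the filter only through the treated or the untreated arrays was not examined, so the size of their differences is uncertain. Of 6 partners of the gamma-tubulin ring PCNT, the pericentrin scaffold, was at 0.59, MZT2A at 0.51, AKAP9 at 0.22 (0.0064 above untreated 1) and CDK5RAP2 at −0.13.

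**Figure D4:**
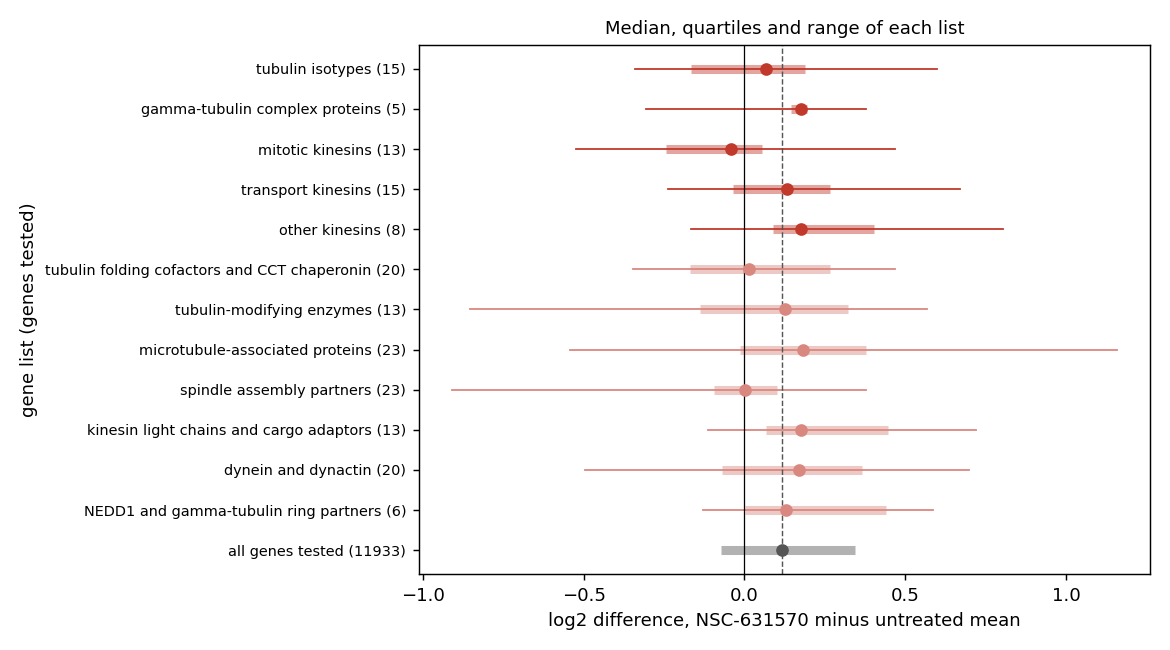
Log2 difference of the NSC-631570 array from the untreated mean (x axis) by gene list (y axis, number of genes tested in brackets). Points are medians, thick bars the quartiles and thin lines the full range, which is not drawn for all tested genes, and the dashed line is the median of all tested genes (0.12). The medians drawn lie between −0.04 (mitotic kinesins) and 0.18.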

How the data were processed

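The authors deposited 1 log2 signal for each probe set of an array; Affymetrix Expression Console is the tool in the submitters' processing notes. Its version, algorithm and normalization were not stated in the sources at hand, and the log2 scale was read from the values. Per the labels' protocols, 100 ng of total RNA from RNeasy preparations were amplified and labelled with biotin. Gene names are those of the platform's annotation. Of 49395, 102 are array controls, 1832 name several genes and 2473 none here, and these were not used for any gene.

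From the deposited log2 values, each gene was taken by its brightest probe set, and genes below the 40th percentile of mean signal were left out. limma 3.58.1 in R 4.3.3 was fitted over all 11933 genes, calling genes at a Benjamini-Hochberg adjusted p under 0.05. The 1 residual degree of freedom comes from the untreated arrays and was moderated towards a prior SD of 0.19 (6.88 prior degrees of freedom), which takes the spread of the treated array to be the same. The fit was tested on simulated data. Printed per array were members at least 0.3 outside both untreated values, all tested isotypes, the 6 largest differences of the mitotic and of the transport kinesins, and up to 4 genes of each related list. Members and lists were chosen with earlier results of these data known. Other genes and probe sets were named after their values were seen. Promoters came from RefSeq. The alternatives were other normalizations, filters, ways to combine probe sets and priors, and leaving out each untreated array.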

Additional observations from a re-analysis of the deposited data

How the results depend on the processing

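No member gene passed the limma threshold under any alternative that kept 1 value per gene (other normalizations and centrings, no filter, a filter at the 60th percentile, averaged probe sets, probe sets without the suffixes _x_at and _s_at, and a prior variance that follows signal). Tested one by one, probe sets of 2 genes passed, KIF1B and KIF3B, those of KIF3B with treated values under the filter. When 1 untreated array was left out, 3 to 5 members were at least 1.5-fold above the single control kept, and 0 to 1 at least 1.5-fold below it. That rule is looser than distance from both controls. No share over all tested genes is given for it, so these counts are not read as a result about the members. Without untreated replicate 1 the members were KIF26A, KIF3A and TUBA4A, and without untreated replicate 2 KIF7, KIFC2, TUBA1A, TUBE1, KIF4A and, below, KIF18B. TUBE1, for example, differed by 0.77 from untreated 1 and by −0.41 from untreated 2. Centring each array on its tested genes moved the median of all tested genes from 0.12 to −0.08. Under it 1 member, KIF18B, stood at least 1.5-fold below both controls. No share over all tested genes is given for this either, so it is not read as a result about KIF18B. The same centring gave medians of −0.13 for tubulin isotypes, −0.24 for mitotic kinesins and −0.065 for transport kinesins. Averaged probe sets gave −0.20 for mitotic kinesins, where the median of all tested genes was 0.035. Leaving out the marked probe sets gave −0.058 for tubulin isotypes, where the median of all tested genes was 0.091. Of 30 named members, 17 kept their sign under every alternative that measured them and 13 did not, among them TUBB4B, TUBB6, TUBE1, TUBG1, KIF22 and KIF3A. Over all genes the count past the threshold was 8, and between 3 and 136 under the alternatives with 1 value per gene other than the trended prior. No paired analysis was possible because the treated group is a single array. Which signals exceed background was not measured.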
